A study of Drosophila melanogaster with 4 samples.

Results

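Head transcripts of fasted flies labelled male were compared between a TORC neuronal rescue (titled TORC Neuronal resuce) and its rescue control. There was 1 array for each. The transcripts described are the probe sets with 1 gene symbol whose signal was 50 or more on both arrays. There were 6385 of them, for 6021 genes, out of 13647 probe sets with 1 symbol and 18952 in the whole table. The choice used the signal on each array, and it also bears on the ratios kept, since a gene dim on 1 array is dropped. Of the probe sets left out, 5674 were under 50 on both arrays, 1218 reached 50 in the neuronal rescue alone and 370 in the rescue control alone. The series held a further pair, a TORC mutant and a WT control, whose signals are given beside these for context. Control probe sets for Bacillus transcripts had geometric means of 153.2 in the neuronal rescue and 172.6 in the rescue control. They had 43.97 in the mutant and 45.21 in the WT control. What this difference means for signals compared across the pairs was not tested. All arrays were labelled as Drosophila melanogaster male heads after 24 h without food, and heads were the source of the total RNA. The titles name no allele, no driver line, no strain background and no fly age, so what the rescue and its control share genetically is known only as far as those titles go. Pooling of heads is not described either. With 1 array per group there is no replicate error and no test, and every ratio below sets a single array against another.

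TORC, now named Crtc in flies, is a coactivator that binds the transcription factor CREB and raises transcription of genes with cAMP response elements. In fed animals the kinase SIK phosphorylates TORC and keeps it in the cytoplasm, and insulin acts through Akt and SIK to hold it there. Fasting lets TORC lose that phosphate and enter the nucleus. In the fly head the fat body, the muscles and the cuticle lie beside the brain and the eyes, and all of them give RNA to a whole-head sample. The question the pair addresses is what return of TORC to neurons does to the transcripts of the fasted head.

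The targeted gene lay under the signal limit in both samples. Crtc had a signal of 37.4 in the neuronal rescue and 6.7 in the rescue control, against 3.8 in the mutant and 203 in the WT control. The rescue control was below 14, the floor to which lower signals were raised, so the neuronal rescue was at least 2.67-fold higher. The rescue control thus carried as little Crtc signal as the mutant did, and the neuronal rescue lay between these and the WT control. Whether the probe set covers the sequence that was restored is not stated in the labels.

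Genes of tissues that lie outside the head also differed between the arrays. All 23 testis genes on the list were under 50 in the rescue control, and 6 were in the neuronal rescue, with summed signals of 15010 in the neuronal rescue and 208.3 in the rescue control. The 20 listed accessory gland and ejaculatory duct genes behaved likewise. Their sums were 25930 and 7753 in the same order, with 3 and 19 genes under 50. EbpIII, the list's 1 gene above the limit on both arrays, had 8165 in the neuronal rescue and 7644 in the rescue control. The median signal over all probe sets other than controls was 37.2 in the neuronal rescue and 20.6 in the rescue control. Head markers were bright on both arrays, among them the arrestin gene Arr2 at 11141 and 10454 and the glial glutamine synthetase gene Gs2 at 6588 and 7214 in the same order. Antennal markers were dim: Orco, the shared odorant receptor subunit, was under 14 on both arrays, and Obp83b had 11.5 in the neuronal rescue and 69.7 in the rescue control. For bulk RNA, fewer cells of a type and less RNA per cell cannot be told apart. How far tissue makeup contributes to any ratio below was not tested.

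Most transcripts at 50 or more on both arrays differed little between them. The median log2 ratio of neuronal rescue over rescue control was -0.14 over the 6385 probe sets, a ratio of 0.905, with 67.6% of them below 0. The central 90% of the ratios ran from -0.72 to 0.47, and 87.1% of the probe sets lay within 1.5-fold. A difference of 2-fold or more, the rule of size used throughout, was met by 161 probe sets, 2.52% of those at 50 or more on both arrays. It was met upwards by 71, which is 1.11%, and downwards by 90, which is 1.41%. Over all 13647 probe sets with 1 symbol, signals under 14 raised to 14, the share was 13.1%, with 1570 higher and 217 lower (1.59%). Of those higher probe sets, 1069 reached 50 in the neuronal rescue alone, and so are not described below. Of the lower ones, 61 reached 50 in the rescue control alone. The near balance of 71 and 90 thus holds only for probe sets within the limit. The 71 and 90 depend on the scaling of the arrays: quantile normalization gave 70 higher and 169 lower, centring on the median of the 6385 gave 96 and 43, and centring on the photoreceptor, neuronal and glial lists gave 147 and 28. The median over all genes was -0.14 as deposited, -0.18 with quantile normalization and 0.16 with that last centring, which turns any list median between -0.30 and 0 to the other side of 0. Medians of gene lists below are ratios as deposited, to be read against -0.14, and counts of called list genes against 1.15% higher and 1.31% lower over all genes. Among the 184 probe sets just inside the limit, with a lower signal of 50 to 55, 7 were higher and 7 lower. Just outside it, at 45 to 50, 8 of 212 were higher and 3 lower.

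The only error measure available was the spread between probe sets of the same gene on these arrays. For 241 genes with a pair of probe sets at 50 or more, the robust SD of the log2 ratio between them was 0.27. It leaves out differences between flies and between RNA preparations. Where a gene had several probe sets, the brightest stood for it, which gave 69 genes higher (1.15% of 6021) and 79 lower (1.31%).

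**Figure D1:**
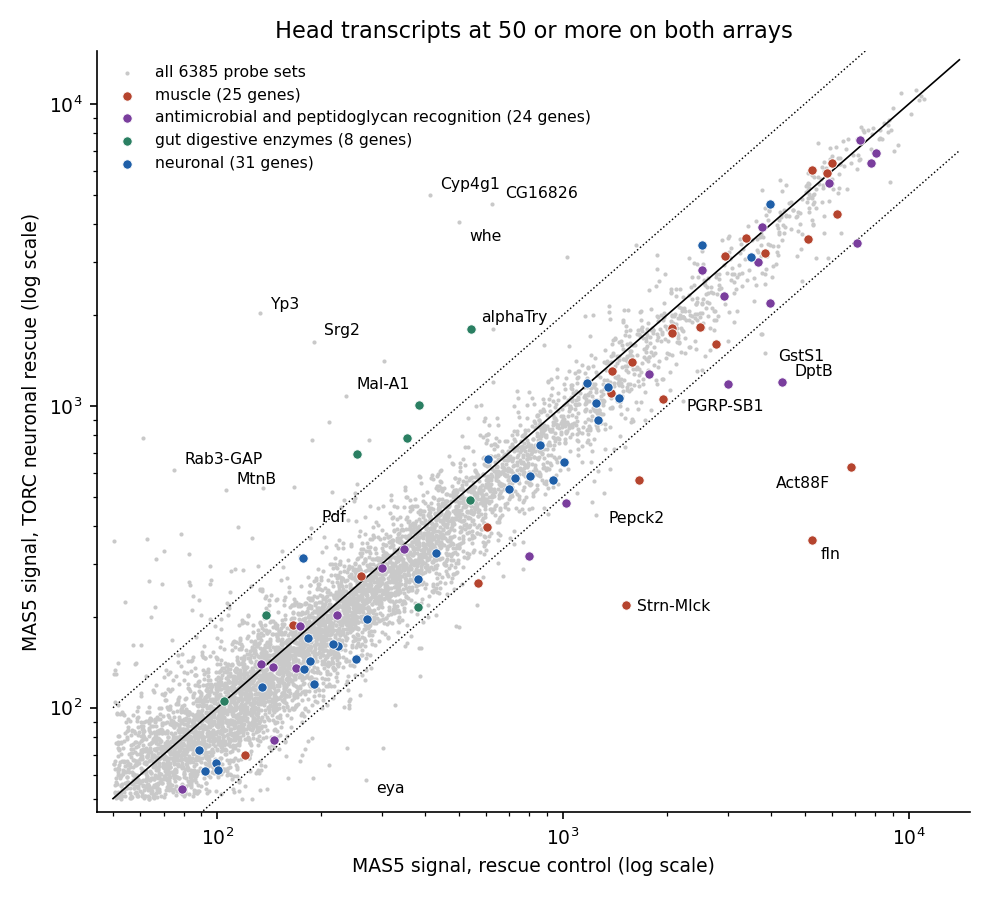
MAS5 signal of each of the 6385 probe sets at 50 or more on both arrays, with the neuronal rescue on the vertical axis and the rescue control on the horizontal axis, both on log scales. The solid line marks equal signal and the dotted lines 2-fold. Coloured points are genes of 4 groups: neuronal genes keep close to the line, flight muscle genes such as fln and Act88F lie far below it, and gut enzyme genes such as alphaTry lie above it.

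The 15 highest ratios belonged to a yolk protein gene, an oenocyte P450, a maltase, a metallothionein, several RNA-binding or trafficking genes and a set of genes known only by number. Yp3, a yolk protein made mainly by the fat body and ovary of females, had the highest of them with 2034 in the neuronal rescue and 133 in the rescue control, 15.3-fold higher. It was also bright in the mutant at 1508 and in the WT control at 2338, so the rescue control alone was low. The other yolk genes, Yp1 and Yp2, were also higher in the neuronal rescue but were under the limit in the rescue control, at 17.6 and 14.8. Cyp4g1, the P450 with which oenocytes make cuticular hydrocarbons, had 4984 in the neuronal rescue against 412 in the rescue control, 12.1-fold higher. It had 50.7 in the mutant and 3796 in the WT control, so the neuronal rescue and WT control were high and the other arrays low.

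Srg2 was 8.56-fold higher, at 1632 in the neuronal rescue and 191 in the rescue control, and it was under 14 in the mutant and WT control. It was therefore bright on this pair of arrays alone. MtnB, a metal-binding metallothionein, had 526 in the neuronal rescue and 106 in the rescue control, 4.97-fold higher, against 63.3 in the mutant and 80.4 in the WT control. The neuronal rescue was the 1 array where MtnB was high. Rab3-GAP, a regulator of the synaptic vesicle GTPase Rab3, was 8.15-fold higher, with 613 in the neuronal rescue and 75.2 in the rescue control. Pof, whose product binds chromosome 4, was 7.1-fold higher (357 and 50.3 in the same order), the rescue control lying just over the limit. The hnRNP gene sm was 4.18-fold higher at 881 and 211. bol encodes boule, an RNA-binding protein of male meiosis, and was 4.7-fold higher at 329.8 and 70.1.

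For Rab3-GAP, Pof, sm and bol, as for Cyp4g1, the mutant was below the WT control. Pof had 42.2 in the mutant and 199.5 in the WT control, and Rab3-GAP 104 and 354. The lowest array was the mutant for Cyp4g1 and Pof and the rescue control for Rab3-GAP, sm and bol. whe, CG16826, CG4363 and CG10911 were 4.65-fold to 8.09-fold higher, and all of them were under 14 in the mutant. CG16826, the brightest of these in the neuronal rescue, had 4645 there and 625 in the rescue control. CG4377 was 4.76-fold and CG9377 4.66-fold higher. Of the 69 higher genes, 13 were on any gene list, which held 721 of all 6021 genes, and 32 bore only a number, as did 32.5% of all genes.

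Some further higher genes were picked out after their values were seen, because their roles are known. orb2, an RNA-binding protein of both long-term memory and spermatogenesis, had 235 in the neuronal rescue and 84.9 in the rescue control, 2.77-fold higher. The deadenylase gene twin was 2.02-fold higher at 462 and 228. Both genes for mitochondrial aminoacyl-tRNA synthetases among the calls, TrpRS-m and CysRS-m, were higher, by 3.09-fold and 2.75-fold. Tom70, a receptor for protein import into mitochondria, was 2.26-fold higher at 204 and 90.1. path, an amino acid transporter, was 3.22-fold higher at 538 and 167, and differed most widely in the other pair, with 140.5 in the mutant and 1669.8 in the WT control. For each of these genes the mutant was below the WT control too, as it was for the testis list. Whether their ratios come from head cells was not tested.

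Digestive genes held several of the higher calls. Of 8 gut enzyme genes at 50 or more on both arrays, 4 were at least 2-fold higher and 0 lower, with a median log2 ratio of 0.85, beside -0.14 over all genes and a background of 1.15% higher. The trypsin gene alphaTry had 1802 in the neuronal rescue and 541 in the rescue control, 3.33-fold higher. The protease genes Jon65Aiv, yip7 and Jon65Aiii were 2.73-fold, 2.63-fold and 2.2-fold higher. The members differed among themselves: betaTry had 488 and 539.5, and Jon74E was lower at 216 and 382 in the same order. Summed over all 29 listed gut genes, the signal was 5834 in the neuronal rescue and 2975 in the rescue control, against 153.9 in the mutant and 9615 in the WT control.

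Other genes of gut epithelium were picked out after their values were seen. mex1, a gene of the midgut, had 260.3 in the neuronal rescue and 83.0 in the rescue control, and mesh, a gut septate junction gene, 162 and 57.3. The mucin-related gene Mur29B had 263 and 63.7. All 3 were under 14 in the mutant. In the WT control mex1 had 43.2, mesh 41.5 and Mur29B 16.6, so the WT control lay below the rescue control, unlike the sum over the gut list. The maltase genes Mal-A1 and Mal-A6, which split disaccharides, were 4.59-fold and 3.92-fold higher. Mal-A1 had 1081 in the neuronal rescue and 236 in the rescue control, against 20.3 in the mutant and 576 in the WT control. Mal-A5, Mal-B1 and Mal-B2 did not reach 2-fold, with log2 ratios of -0.12, -0.61 and -0.10.

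Peptide hormone genes, 22 in number, included 2 higher and 1 lower, against 1.15% higher and 1.31% lower over all genes. Their median log2 ratio was -0.07, beside -0.14. Pdf, the peptide of the clock neurons, had 394 in the neuronal rescue and 187 in the rescue control, 2.11-fold higher. In the other pair it had 219.9 in the mutant and 435 in the WT control, so that it was low on both arrays with low Crtc and high on the others. Proc, which encodes the muscle-active peptide proctolin, was 2.57-fold higher, at 288 in the neuronal rescue and 112 in the rescue control. The mutant had 51.0 and the WT control 136, so the neuronal rescue was the brightest array and the WT control lay close to the rescue control. For both genes, as for the testis list, the neuronal rescue was above its control and the mutant below the WT control, and whether that is related was not tested. Other peptide genes stayed short of 2-fold: Nplp1 had a log2 ratio of 0.49, Crz 0.53, NPF 0.47 and sNPF -0.18. ImpL2, a secreted protein that binds insulin-like peptides, was the lower gene at 219.6 and 563, 2.56-fold lower in the neuronal rescue. Mip, Eh and Nplp4 each had a log2 ratio of -0.75.

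The fasting and insulin list had 1 gene higher and 2 lower of 19, against 1.15% higher and 1.31% lower over all genes, with a median of -0.15, beside -0.14. Akt, the kinase downstream of the insulin receptor, was 2.22-fold higher at 242 in the neuronal rescue and 109 in the rescue control. The mutant had 218 and the WT control 236, so the rescue control alone was low. The lower genes were ImpL2 and the deacetylase gene Sirt1, 2.05-fold lower at 192 and 393. Sirt1 lost its 2-fold difference after centring on the photoreceptor, neuronal and glial lists, at a log2 ratio of -0.73. InR, AkhR, chico and Tsc1 had log2 ratios between -0.15 and -0.04, and foxo had 0.41.

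Genes of indirect flight muscle, a muscle of the thorax, gave the lowest ratios of all. Whether their signals come from head cells was not tested. The thick filament gene fln had 359 in the neuronal rescue and 5251 in the rescue control, 14.6-fold lower. Act88F, the flight muscle actin, had 626 and 6807, 10.9-fold lower, and the troponin C gene TpnC4 569 and 1662, 2.92-fold lower. All of these were low in the mutant as well, with 14.2 for fln, 87.4 for Act88F and 4.8 for TpnC4, and high in the WT control, with 2156, 3116 and 1053. That order differs from the one of the testis and male tract genes, since here the neuronal rescue lay below its control and the mutant below the WT control.

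Over the 25 muscle genes, 0 were higher and 5 lower against a background of 1.31%, with a median of -0.32, beside -0.14 over all genes. Of these genes 18 lay below 0 and 7 above it. The other lower genes were Strn-Mlck and Obsc, which encode giant sarcomere proteins. Strn-Mlck was 6.94-fold lower by a probe set at 219 and 1522, but its other probe set read 354 in the neuronal rescue and 408 in the rescue control. Among the genes above 0 were some used by most muscles: SERCA had a log2 ratio of 0.08, Argk1 0.02, Prm 0.09 and Mf 0.20. Mlc2 and the troponin T gene up had -0.80 and -0.89, between the groups.

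**Figure D2:**
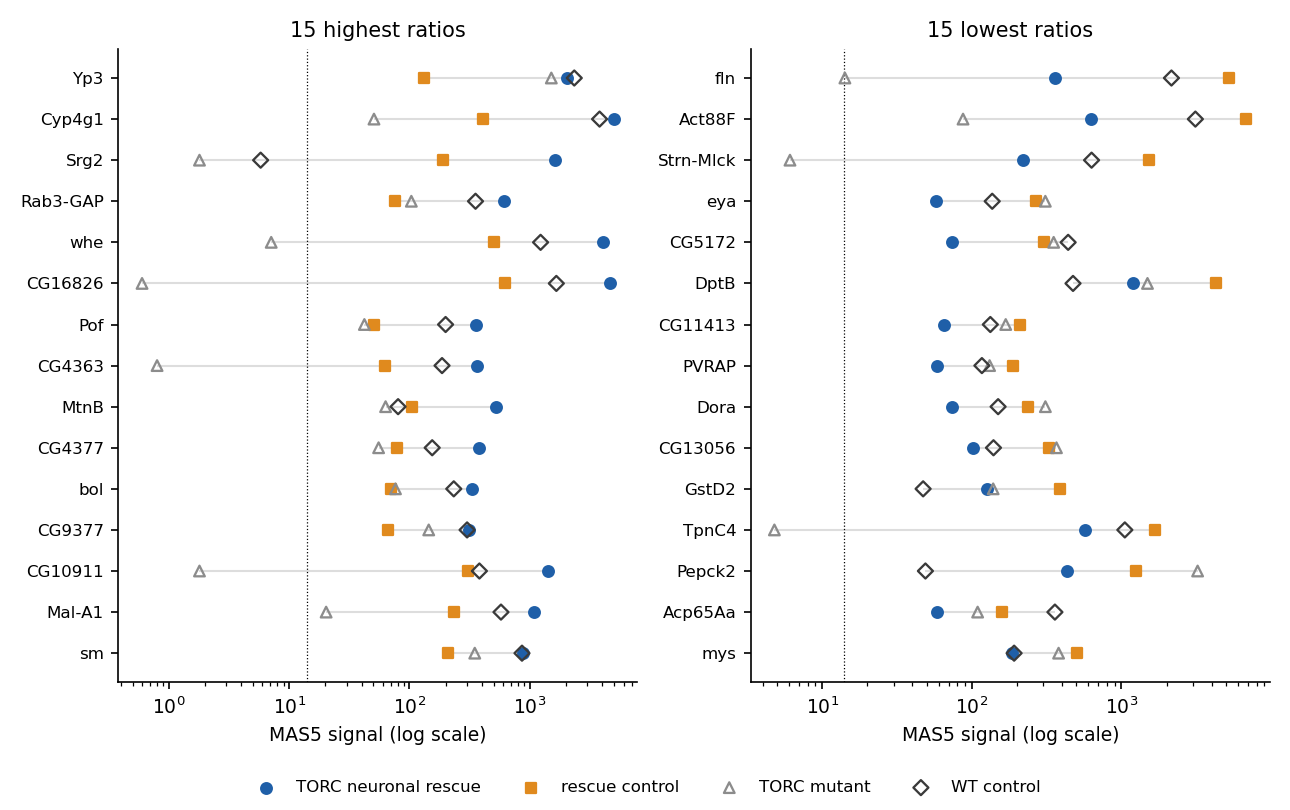
MAS5 signal, on a log axis, of the 15 genes with the highest and the 15 with the lowest ratio of neuronal rescue over rescue control, on all 4 arrays. Filled circles are the neuronal rescue, filled squares the rescue control, open triangles the TORC mutant and open diamonds the WT control, and the dotted line is the floor of 14. On the left the mutant lies near or below the rescue control for most genes and clearly above it for Yp3, CG9377 and sm, and on the right the flight muscle genes are lowest in the mutant while Pepck2 is highest there.

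None of the antimicrobial genes was 2-fold higher in the neuronal rescue. These peptides are made by the fat body on signals from the Toll and Imd pathways. The median of 16 effector genes was -0.29, beside -0.14 over all genes, and 3 of them were lower, against 1.31%. DptB, an Imd target, had 1199 in the neuronal rescue and 4293 in the rescue control, 3.58-fold lower. The mutant had 1492 and the WT control 474, so the rescue control was the highest of the arrays. Def was 2.14-fold lower at 478 and 1020.4, and Mtk 2.06-fold lower at 3454 and 7099. After centring on the photoreceptor, neuronal and glial lists Def and Mtk fell short of 2-fold, with log2 ratios of -0.79 and -0.74, and the list median turned to 0.01, beside 0.16 for all genes. In all, 13 of the 16 lay below 0 as deposited. The Toll-dependent Bomanins BomS2, BomS5 and BomS6 were the 3 above it, at 0.08, 0.05 and 0.15. The other Bomanins ran from -0.86 for BomT3 to -0.10 for BomBc2, and Drs had -0.29.

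Peptidoglycan sensors and enzymes were also below 0 for the most part, in 6 of 8 genes as deposited. PGRP-SB1, an amidase that cuts peptidoglycan, was 2.55-fold lower at 1178 in the neuronal rescue and 3004 in the rescue control. PGRP-SC2, an amidase that dampens the Imd response, was 2.5-fold lower at 319 and 798. PGRP-LF and PGRP-LB, which hold the Imd response down, had log2 ratios of -0.91 and -0.56. The intracellular receptor gene PGRP-LE, PGRP-LA and the Toll-side sensor GNBP3 had log2 ratios of 0.06, -0.04 and -0.04. In all 2 of 8 recognition genes were lower and 0 higher, against 1.31% lower over all genes, and the list median was -0.30, beside -0.14. The distance of that median from all genes changed sides between settings. It was -0.30 with quantile normalization, 0.10 at a signal limit of 100 (6 genes) and -0.53 at 200 (4 genes). Without probe sets that differed the same way between the WT control and the mutant it was 0.09 (7 genes). Among 18 genes of the Toll and Imd cascades, the Imd inhibitor pirk was the 1 lower gene, 2.59-fold at 53.7 and 139, and none was higher. Of the hemocyte genes, a source of other immune transcripts, Hml had 121 and 132, and none of 8 reached 2-fold. The stress peptide gene TotC was under the limit in the neuronal rescue, at 18.8 there and 308 in the rescue control, and of the 8 genes on its list 3 reached the limit on both arrays. These were Stat92E, vir-1 and dome, with log2 ratios from -0.55 to -0.39 and a median of -0.45. Tep3 and Tep4, thioester proteins that bind microbes, had -0.41 and 0.02.

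Of 26 glutathione S-transferase genes, which conjugate toxic compounds, 2 were lower and 0 higher, against 1.31% lower over all genes, and the median was -0.13, beside -0.14. GstD2 was 3.03-fold lower, at 127 in the neuronal rescue and 386 in the rescue control, with 139 in the mutant and 47.3 in the WT control. GstS1, the sigma-class enzyme, was 2.57-fold lower at 1496 and 3841, and at 1266 and 1515 the mutant and WT control lay near the neuronal rescue. Here too the rescue control was the bright array. Among 46 P450 genes, Cyp4g1 was the 1 higher gene and Cyp6a2, known from insecticide resistance, the 1 lower gene, at 562 and 1229.9. Over all genes 1.15% were higher and 1.31% lower. None of 13 UDP-glycosyltransferase genes was called. The 18 antioxidant genes had a median of -0.05 with GstS1 as the 1 lower gene, and Sod2 had 1731 and 1641. No chaperone gene of 15 was called.

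A small set of metabolic genes was lower in the neuronal rescue and higher in the mutant. Pepck2, a phosphoenolpyruvate carboxykinase, had 435 in the neuronal rescue and 1249 in the rescue control, 2.87-fold lower, with 3226 in the mutant and 49.0 in the WT control. Its paralogue Pepck1, the other enzyme of that step, had 7714 and 8263, a log2 ratio of -0.10. Gnmt, which uses up S-adenosylmethionine, was 2.15-fold lower at 1734 and 3727, with 3839.7 in the mutant and 331 in the WT control. The lipid droplet gene Lsd-1 was 2.22-fold lower at 616 and 1369.6, with 1658 and 406 in the mutant and WT control. For Pepck2, Gnmt, Lsd-1 and Cyp6a2 the order was the same, low in the WT control, then the neuronal rescue, and high in the rescue control and mutant. Under centring on the photoreceptor, neuronal and glial lists Gnmt, Lsd-1 and Cyp6a2 dropped below 2-fold, to log2 ratios of -0.80, -0.85 and -0.83, and Pepck2 stayed past it at -1.22.

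The sugar list had 2 higher and 1 lower genes of 27, against 2.46% in either direction over all genes, with a median of -0.15, beside -0.14 over all genes. Of 26 lipid genes 1 was lower and 0 higher, their median being -0.08, beside -0.14. The lipase gene bmm had 1322 and 1662. For methionine and one-carbon metabolism, 1 of 14 genes was lower and the median -0.16, beside -0.14. Fat body secreted proteins had none called of 14 and a median of 0.05, which is above that of all genes. Within that list the storage protein gene Lsp2 had 5512 in the neuronal rescue and 8793 in the rescue control, and the lipid carrier gene apolpp 6432 and 5677. None of 22 autophagy genes was called, with a median of -0.22, beside -0.14.

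Cuticle proteins had a median of -0.55 over 18 genes, beside -0.14 over all genes, with 3 lower and 0 higher against 1.31% lower. Cpr100A, Cpr97Ea and Cpr62Bc, which carry the chitin-binding domain of that family, were 2.18-fold, 2.17-fold and 2.14-fold lower. Cpr100A had 1726 in the neuronal rescue and 3763 in the rescue control. All of these dropped below 2-fold under both centrings, while the list median stayed below that of all genes by 0.41 as deposited and 0.34 with quantile normalization, both in log2 units. Without probe sets that differed the same way between the WT control and the mutant, that distance was 0.15. Acp65Aa, an adult cuticle gene outside the list, was 2.74-fold lower. The chitin deacetylase genes verm, serp and Cda4, noticed after their values were seen, were 2.16-fold, 2.15-fold and 2.28-fold lower. Also chosen after their values were seen, with no list behind them, were 3 genes of cell adhesion: the integrin beta subunit gene mys at 184 and 501, its alpha partner mew at 64.6 and 134, and the laminin gene wb at 102 and 241, in the neuronal rescue and rescue control. Both probe sets of mys were past 2-fold, the other reading 107 in the neuronal rescue and 242 in the rescue control.

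The remaining lowest genes had no list. eya, a phosphatase and transcription cofactor of eye development, was 4.68-fold lower at 57.5 in the neuronal rescue and 269 in the rescue control. With 309.9 in the mutant and 137 in the WT control, it was lowest in the neuronal rescue. CG5172 was 4.11-fold, CG11413 3.25-fold, PVRAP 3.24-fold, Dora 3.22-fold and CG13056 3.21-fold lower. The neuronal rescue was the dimmest of the arrays for each of these and its signal there ran from 58.6 for PVRAP to 102 for CG13056.

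Several lower genes with known neuronal or cell structural roles, again picked out after their values were seen, stood just past 2-fold. Cadps, which primes dense-core vesicles for release, was 2.46-fold lower by its brightest probe set, at 273 in the neuronal rescue and 670.2 in the rescue control. Its other probe set had 223 and 288. Ac13E, an adenylyl cyclase that makes cAMP, had 173 and 363, 2.1-fold lower, and the receptor gene of the peptide hormone DH31, Dh31-R, 60.8 and 132. The proton channel gene OtopLa was 2.66-fold lower by its brightest probe set, at 289 and 767. Its other probe set fell short of 2-fold, at 67.0 and 107.1. Patronin, which guards the minus ends of microtubules, was 2.02-fold lower, and ssh, a cofilin phosphatase, 2.13-fold. Tg, a transglutaminase that cross-links secreted proteins, was 2.02-fold lower at 57.3 and 116. Ac13E, Patronin, ssh and Tg differed by less than 1.5-fold between mutant and WT control, and Cadps was higher in the mutant at 729, against 388 in the WT control. Most of these ratios would not pass 2-fold after either centring, since each centring moves all ratios upwards.

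Genes that define the cells of the head were not called. None of 25 photoreceptor genes, 15 eye pigment genes, 31 neuronal genes, 17 glial genes or 8 amine genes was 2-fold different by its brightest probe set. Their medians were -0.30, -0.36, -0.41, -0.23 and -0.35, each below the -0.14 of all genes. They stayed below it with quantile normalization too, by 0.04 for the glial list up to 0.32 for the pigment list. With the limit at a signal of 200 the glial list was the exception, 0.02 above all genes. Of the photoreceptor genes, the light-gated channel gene trp had 5087 in the neuronal rescue and 6258 in the rescue control, the scaffold gene inaD 1498 and 1848, and the arrestin gene Arr1 8619 and 8483. The phosphoinositide transfer gene rdgB had the lowest ratio among them at -0.67.

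In neurons, the RNA-binding marker elav had 142 in the neuronal rescue and 185 in the rescue control, and the vesicle fusion gene nSyb 588 and 803. The GABA synthesis gene Gad1 had 3112 and 3486, close to equal. Ratios ran from -0.80 for the active zone gene Rim to 0.83 for the calcium channel gene cac. Of the neuronal genes 26 lay below 0 and 5 above it, among these Snap25, a partner of nSyb in fusion, at 0.43. Among glial genes 14 of 17 lay below 0. The lowest was Nckx30C, a sodium-calcium exchanger gene, at -0.73, and moody, a receptor of the blood-brain barrier, had -0.66. The sodium pump gene nrv2, at 0.66, and the glial regulator gene repo, with 413 and 357, were above 0. Vmat, the vesicular monoamine transporter, had 128 and 250.5 by its brightest probe set. A dimmer probe set of Vmat was just past 2-fold lower, at 107.3 and 216.3, and the dimmest had 92.7 and 163.2.

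Clock genes stayed within 2-fold apart from Pdf, the 1 called gene of 15, against 1.15% higher over all genes. The repressor genes per and tim had log2 ratios of -0.03 and -0.47, the activators Clk and cyc -0.17 and -0.81, and vri -0.40. None of 16 genes of TORC, CREB and cAMP signalling reached 2-fold, with a median of -0.36, beside -0.14 over all genes. The distance of that median from all genes was -0.22 as deposited and -0.06 with quantile normalization. At signal limits of 100 and 200 it was -0.04 and -0.03. dnc, the cAMP phosphodiesterase, was lowest with 178 in the neuronal rescue and 334 in the rescue control. Of the kinases that restrain TORC, Sik2 had 60.4 and 84.4 and Sik3 219 and 164, in opposite directions. Among 6 transcription factor genes that respond to neuronal activity the Fos homologue kay was highest at 416 and 252, and none was called. The sex determination and dosage compensation list had none called of 10 and a median of -0.46, beside -0.14, with fru at -0.95 and msl-2 at -0.72. Odorant-binding proteins had 2 higher and 0 lower of 17, against 1.15% higher and 1.31% lower over all genes. Their median was 0.14, beside -0.14. The higher ones were Obp56g, with 3103 in the neuronal rescue and 1024 in the rescue control, and Obp46a, with 197 and 95.4. Obp46a was short of 2-fold with quantile normalization, at 0.96. Only 2 of 167 chemoreceptor genes reached the limit on both arrays, Ir76a and Snmp1.

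Basic cell machinery was nearly level, and its lists fell on either side of the median of all genes. Cytosolic ribosomal protein genes had a median of 0.09 over 33 genes, 25 of them above 0, and RpL32 had 7149 in the neuronal rescue and 5908 in the rescue control. Mitochondrial ribosomal protein genes had -0.0014 over 69. For 56 oxidative phosphorylation genes the median was -0.12, for 26 proteasome genes -0.15, for 18 vacuolar ATPase genes -0.08 and for 3 tubulin genes -0.20. None of these lists held a gene at 2-fold by its brightest probe set. The ribosomal list stood above all genes under each scaling, by 0.23 as deposited and 0.30 with quantile normalization.

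**Figure D3:**
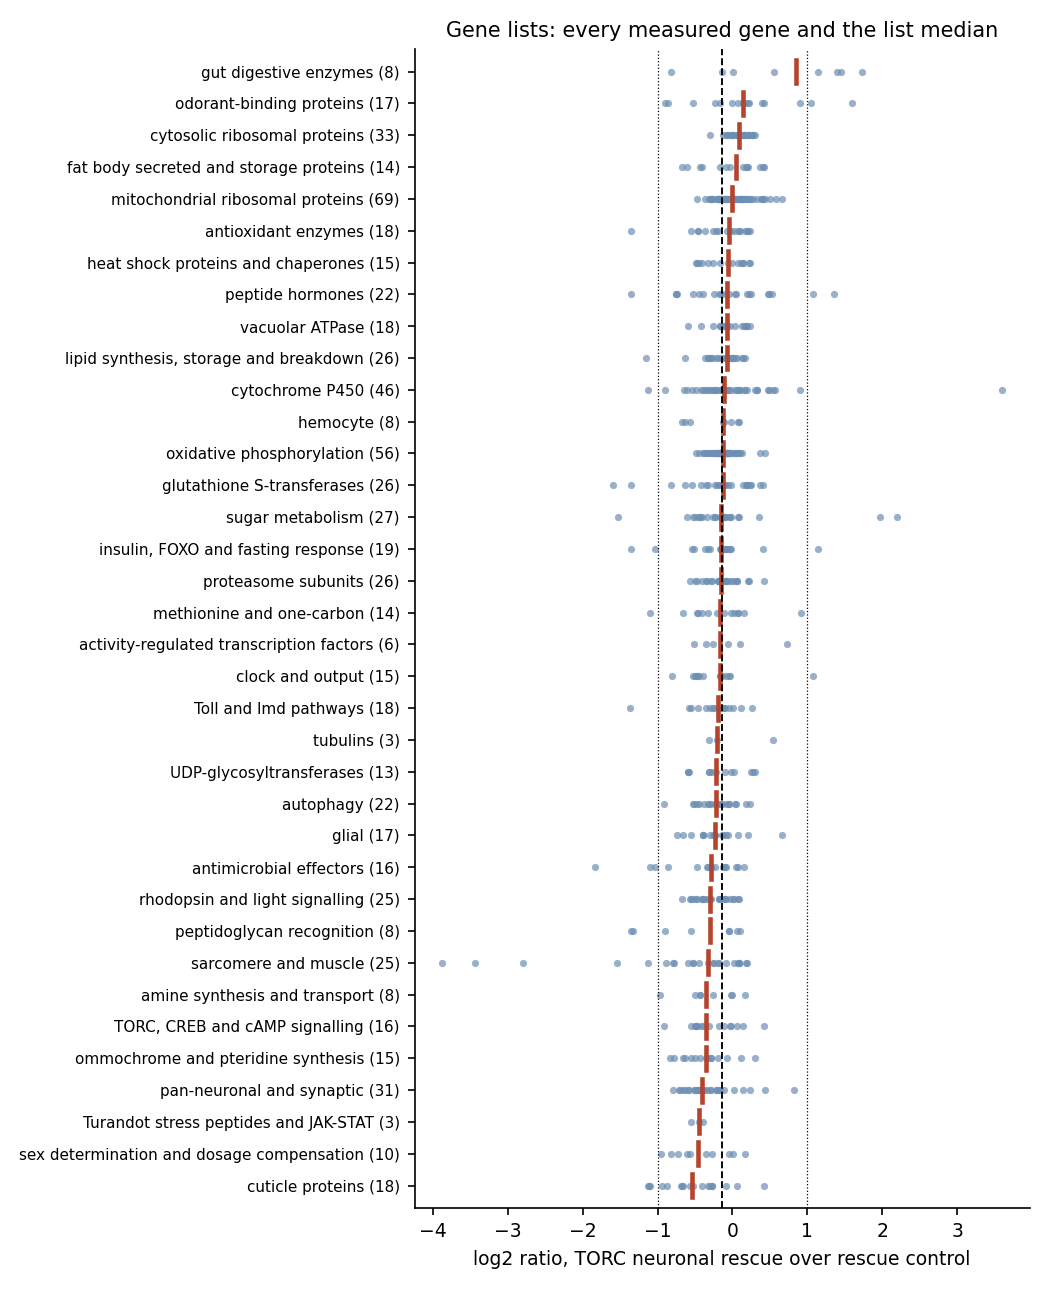
Log2 ratio of neuronal rescue over rescue control for every gene at 50 or more on both arrays in each gene list with at least 3 such genes (points), with the list median as a vertical bar and the number of genes in parentheses. The dashed line is the median of all 6021 genes at -0.14 and the dotted lines mark 2-fold. Most lists centre near the dashed line, with gut enzymes to the right at 0.85 and cuticle proteins to the left at -0.55.

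Ratios varied with the length of the gene. Genes were placed in 5 equal groups by their span in the RefSeq annotation of the Release 6 assembly, which includes introns. The median log2 ratio was -0.03 for the shortest group, then -0.10, -0.14 and -0.19, and -0.25 for the longest. The steps all ran the same way. In the mutant over the WT control the medians of the same groups ran upwards, at 0.00, 0.03, 0.10, 0.14 and 0.17. Long genes were thus dimmer, relative to short ones, on the arrays where testis and male tract genes were bright. The order of the groups was kept with quantile normalization, between -0.08 and -0.29. Lower calls were also more frequent in the longest group, at 32 of 1275 probe sets against 18 of 1275 in the shortest, and higher calls at 9 and 28.

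By chromosome, chromosome 4 had the lowest median, -0.31 over 62 probe sets, of which 55 were below 0. The X had -0.19, and the large autosomal arms lay between -0.14 and -0.13. Chromosome 4 genes are long, and in the 2 longest groups, which held most of them, their medians were -0.28 and -0.33, against -0.19 and -0.25 for genes elsewhere. In the middle length group chromosome 4 had -0.38 over 7 probe sets, against -0.14. As deposited, its median thus lay below that of genes elsewhere within each of these 3 length groups. With quantile normalization its distance from all probe sets shrank from -0.17 to -0.09. Its median was then -0.28, between the -0.22 and -0.29 of the 2 longest groups over all chromosomes. The comparison within length groups was not repeated under that scaling. In the mutant over the WT control chromosome 4 had 0.22, the highest of the chromosomes. The gene for its binding protein, Pof, had been 7.1-fold higher in the neuronal rescue, with 50.3 in the rescue control. Whether that is related to the chromosome 4 median was not tested.

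**Figure D4:**
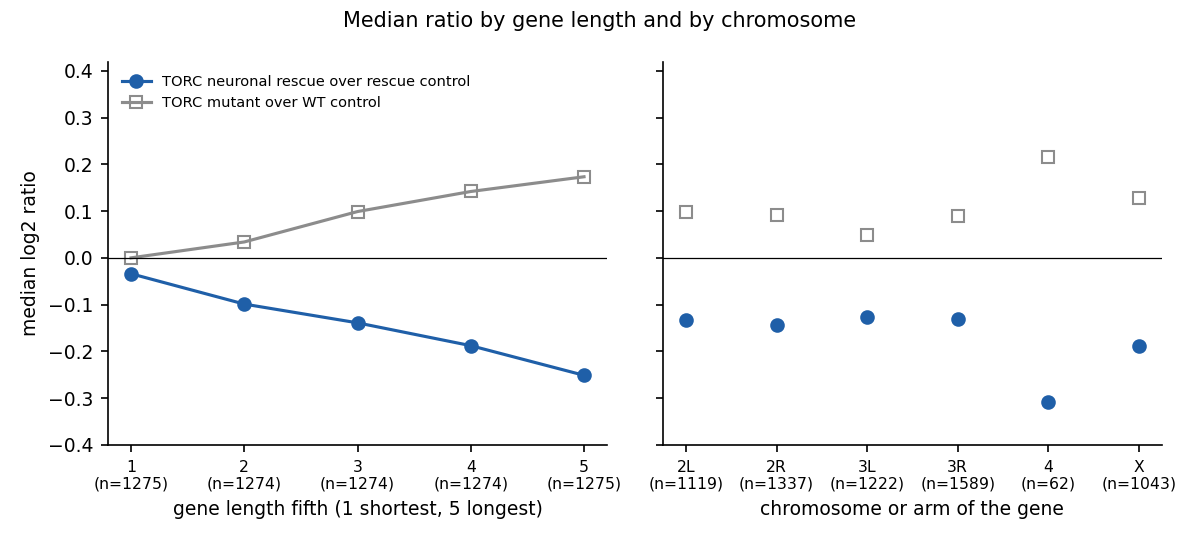
Median log2 ratio of probe sets at 50 or more on both arrays by gene length (left) and by the chromosome or arm of the gene (right), with the number of probe sets under each. Filled circles are the neuronal rescue over the rescue control and open squares the mutant over the WT control. From the shortest to the longest genes the circles run from -0.03 to -0.25 and the squares from 0.00 to 0.17, and chromosome 4 is lowest for the circles and highest for the squares.

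The mutant and WT control share no array with this pair, and the called probe sets could be followed there. Over all 6385 probe sets the log2 ratio of neuronal rescue over rescue control correlated with that of WT control over mutant at r = 0.37, a description across probe sets that are not independent. Of the 71 higher probe sets, 44 were past 2-fold on the low side in the mutant, none was 2-fold higher, and 27 were within 2-fold. Of all 6385, 5.25% differed 2-fold between mutant and WT control, 2.76% lower and 2.49% higher. Of the 90 lower ones, 22 were 2-fold higher in the mutant, 10 lower and 58 within 2-fold. The 10 included fln, Act88F, Strn-Mlck and TpnC4.

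Probe sets that differed the same way by 1.5-fold or more between the WT control and the mutant were then left out. Of all 6385 probe sets 5570 remained, with 14 of the 71 higher and 55 of the 90 lower ones. The 14 included Srg2, MtnB, Mur29B, Obp56g, Akt and yellow-d, and the 55 included the flight muscle genes, GstS1, PGRP-SC2, pirk, Def and ImpL2. Srg2 was below the floor in both the mutant and the WT control. Mur29B was below it in the mutant and had 16.6 in the WT control. For Srg2 and Mur29B that pair could therefore not show a difference. The genes left out on the lower side included DptB, PGRP-SB1, Pepck2, Gnmt, Lsd-1 and Cyp6a2. Pdf and Proc were left out on the higher side. Since testis, male tract and gut genes also differed the same way on both pairs, TORC and tissue makeup cannot be told apart by this split.

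**Figure D5:**
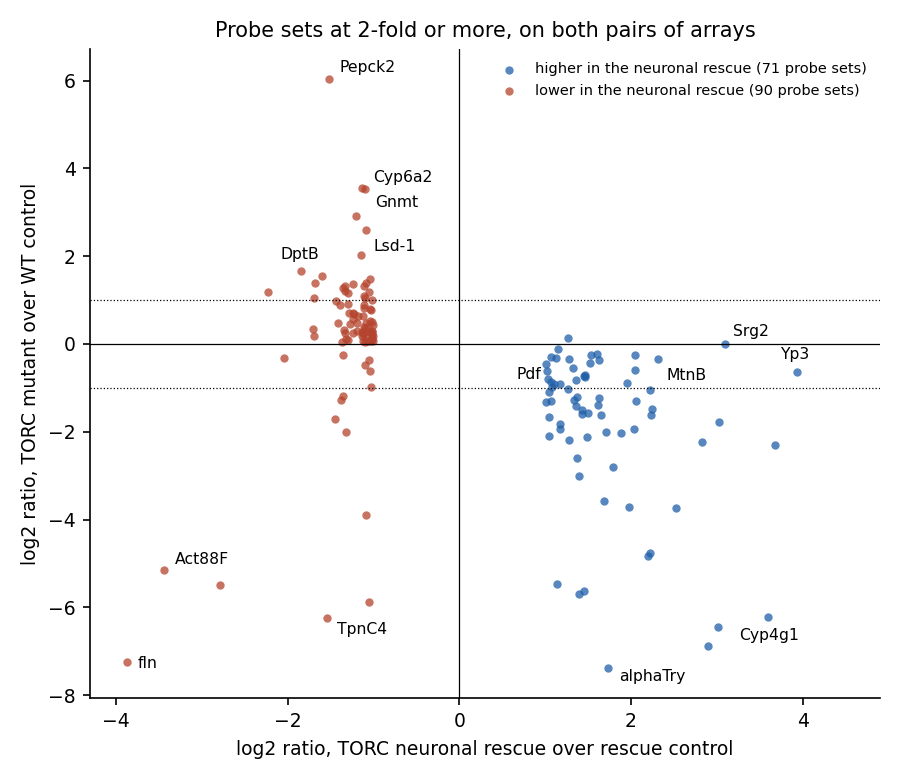
Log2 ratio of the mutant over the WT control (vertical) against the log2 ratio of the neuronal rescue over the rescue control (horizontal) for the 161 probe sets at 2-fold or more on the horizontal axis, with 71 higher and 90 lower. Dotted lines mark 2-fold on the vertical axis. Most higher probe sets lie below 0, the flight muscle genes fln, Act88F and TpnC4 lie at the lower left, and Pepck2, Cyp6a2, Gnmt and Lsd-1 at the upper left.

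Probe sets of the same gene did not always give the same answer. Of 293 genes with several probe sets at 50 or more, 19 had at least 1 past 2-fold, and for 2 of these, mys and Pgm2a, all were. In 17 of the 19 all probe sets lay on the same side of 0. The widest gap was in Syp, an RNA-binding gene, where a probe set had 783 in the neuronal rescue and 60.9 in the rescue control and the other 864 and 612. For Arc1, a gene induced by neuronal activity, the dimmer probe set had 187 and 491 and the brighter 778 and 1014 in the same order. ATPsynbeta was called by a dimmer probe set at a log2 ratio of -1.10 and not by the brighter at -0.38. Most called genes had only 1 probe set here, so the ratio of such a gene rests on a single probe set on each array.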

How the data were processed

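RNA from heads labelled male was hybridised to Affymetrix Drosophila arrays, 1 array per group. The deposited values are linear intensity signals. The submitters' processing notes name MAS5 as the authors' tool. Its version and settings are not given in the sources used here, and the 2% trimmed mean of every array is 150.0, so the arrays had been scaled alike before deposit. Probe sets were named through the platform annotation supplied with the data (13647 with 1 gene symbol, 402 with several, 4720 with none). Of these, 13544 were matched by Entrez ID to RefSeq genes of the Release 6 assembly for lengths and chromosomes.

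Signals under 14 were raised to 14, and a log2 ratio of neuronal rescue over rescue control was taken per probe set with 1 symbol. Probe sets at 50 or more on both arrays were kept. A gene was represented by its brightest probe set. With 1 array per group no test could be made, so differences of 2-fold are counted with no p-value and the number of arrays limits the precision. Named genes were the 15 highest and 15 lowest ratios, the 4 listed genes with the widest ratio per list, Crtc, and further list members by signal. The members and the 41 gene lists were chosen with earlier results of these data known, and the lists were cleared of wrongly matched synonyms after the files were read. Counting was tested on simulated data. Alternatives covered scaling, the signal limit, the floor, the fold and the probe set rule. Python 3.11.15, numpy 2.4.6, pandas 2.3.3 and matplotlib 3.10.9 were used.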

Additional observations from a re-analysis of the deposited data

Results flagged for a closer look

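Probe sets with several gene symbols or none enter no count above. Among 830 of them at 50 or more on both arrays, 13 were 2-fold or more higher in the neuronal rescue than in the rescue control and 14 were 2-fold or more lower, 3.25% in all, with a median log2 ratio of -0.12. They are listed because a signal was present in data that no comparison used. The log2 ratios ran from -2.61 to 4.67. Which genes these probe sets measure was not analysed here.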

How the results depend on the processing

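No paired analysis was possible because each group had 1 array, and no array could be left out. As deposited, 71 probe sets were higher and 90 lower. Scaling moved the split: quantile normalization gave 169 lower (70 higher), centring on the median of the 6385 probe sets 43 lower (96 higher), and centring on the photoreceptor, neuronal and glial lists 147 higher and 28 lower. A signal limit of 100 gave 37 higher and 55 lower, a limit of 200 gave 19 and 32, and no limit gave 1570 and 217. A 1.5-fold threshold gave 208 and 615, and a 3-fold threshold 31 and 11. Without probe sets that differed the same way between WT control and mutant there were 14 higher and 55 lower. Of the 6385 probe sets, 4717 were kept at a limit of 100, 2926 at 200 and 5570 without same-way probe sets. That last filter takes the direction of a probe set's own ratio into account. A wider fold can only lower a count. What else changed the counts, scaling included, was not tested. Of listed genes, 13 were higher and 22 lower. The higher count was 7 at a limit of 200, 130 with no limit and 2 without same-way probe sets, and the lower count was 13 and 12 under the 2 centrings, 40 with no limit and 10 without same-way probe sets. Over the whole table, a floor of 7 gave 426 lower and a floor of 28 gave 141, against 217 at 14. Of 54 named genes past 2-fold, 50 remained past it with quantile normalization, 46 and 45 under the centrings and 54 with the mean over probe sets, and none reversed under these. Lsd-1, Cyp6a2, Cpr100A, Cpr97Ea, Gnmt, Cpr62Bc, Def, Mtk, Sirt1 and Obp46a dropped below 2-fold under at least 1 of them. Signals near 50 limit what can be said of dim genes.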
